A study of Mus musculus with 20 samples.

Results

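The subject is 44 genes of the cell division cycle in the dorsal root ganglia (DRG) of mouse embryos, as read by RNA sequencing of whole ganglia. They were taken from a list of replication, mitosis and cyclin genes, whose symbols were matched to the Ensembl identifiers of the expression table. All 44 were among the 37620 genes of that table. Of these, 42 reached a mean of 1 RPKM (reads scaled to exon length and by a factor for each library) in at least 1 group and were tested with 14529 genes in all. Cdc6 and Mybl2 lay below that limit. By role, 11 members act in the licensing of replication origins and at the fork, 3 in nucleotide supply, 8 as G1/S cyclins, their kinases or E2F, 2 in G2/M transcription, 7 as mitotic cyclins and kinases, 4 in the spindle checkpoint and its target complex, and 8 in the spindle, centromere or chromosome. The last is Mki67, the gene of the proliferation marker Ki-67.

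A cell enters the cycle when D-type cyclins and CDK4 or CDK6 inactivate the retinoblastoma protein, which frees E2F factors to switch on the genes of DNA replication. The genes of mitosis follow later, under Mybl2 and Foxm1, and most messages of either wave are scarce in cells that have left the cycle. DRG sensory neurons are born before the last days of gestation, while glia, fibroblasts and vessel cells of the late embryonic ganglion can still divide.

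The embryos were of the C57Bl6 strain at E18.5 (days of gestation), with no transgene or treatment named. Each of 10 donors, 5 male (M1, M3, M5, M7 and M8) and 5 female (F3, F7, F8, F9 and F10), gave 1 library of lumbar DRG (L4-5) and 1 of sacral DRG (L6-S1), which made 20 libraries in 4 groups of 5. The labels name donors but not litters. Whole ganglia were lysed and total RNA was amplified, so that in these values fewer cells of a type and less RNA per cell cannot be told apart.

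Depth ran from 19606261 to 39678956 recovered reads per library, and the 2 mitochondrial rRNA genes took from 17.83% to 61.05% of them. In each library the deposited values had the same median over genes with a value, 0.930302 log2 RPKM, so they were scaled by more than depth. All 12 pan-neuronal markers, Prph, Isl1 and Pou4f1 among them, and 11 of 12 Schwann and satellite glia markers were expressed above the limit, with median expression of 6.45 and 2.96 log2 RPKM. The glia list includes Gfra3, which the study names among genes of small, unmyelinated neurons, so values of that list are not from glial genes alone. Markers of tissue around the ganglion were present too, with 10 of 10 fibroblast and meninges markers tested, 7 of 9 for endothelium and pericytes, 7 of 9 for macrophages, 7 of 10 for erythroid cells, 4 of 7 for cartilage, 5 of 8 for skeletal muscle and 2 of 6 for spinal cord progenitors. No marker found in the table was at 0 in all libraries.

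The start regions of the member genes are shown first, and how the members varied together over the libraries is described below. Promoter windows of 34 of the 44 members were matched in RefSeq (GRCm38.p6, 300 bases from 250 before to 50 after the start). Tpx2, Foxm1, Ccne2, Aurkb, Ccnd1, Ccna2, Mcm4, Gmnn, Kif20a and Ccnd2 were not matched. Each window was searched on both strands for 3 kinds of motif. The first was CCAAT, the site of NF-Y. The second was the core of the cell cycle homology region (CHR) found in many mitotic promoters, written TTTGAA or, as a variant of it, TTCGAA. The third was of E2F type and was written TTCCCGC, in another form TTCGCGC, or in a further form TTGGCGC. The reverse of the first motif, ATTGG, can share bases with the last of these. Of the motifs, CCAAT was held by 24 of the 34 member windows, which is 70.6%, against 37.9% of 27025 windows of all genes and 38.5% of 8701 windows of tested genes. CHR was held by 15, or 44.1%, against 19.4% and 12.8%. An E2F-type word was held by 11, or 32.4%, against 8.21% and 14.8%. A match says only that these letters lie in the window.

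The 250 bases before the start are printed for the 4 matched members whose expression followed the other members most closely and for the 2 that followed them least, Kif20a having no window. Top2a lies at chr11:99024190-99024439 (minus strand), Mki67 at chr7:135716380-135716629 (minus), Ccnd3 at chr17:47504801-47505050 (plus), Kif11 at chr19:37376132-37376381 (plus), Ccne1 at chr7:38107491-38107740 (minus) and Aurka at chr2:172370571-172370820 (minus). Each is written 5′ to 3′ on the strand of its gene, with the motif words above in capitals in whichever orientation they were found.
Top2a: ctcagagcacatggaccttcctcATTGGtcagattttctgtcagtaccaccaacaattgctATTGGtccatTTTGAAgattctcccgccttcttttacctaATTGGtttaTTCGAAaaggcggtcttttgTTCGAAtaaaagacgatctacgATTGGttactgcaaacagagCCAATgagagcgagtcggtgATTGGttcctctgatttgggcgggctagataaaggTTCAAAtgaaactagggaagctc
Mki67: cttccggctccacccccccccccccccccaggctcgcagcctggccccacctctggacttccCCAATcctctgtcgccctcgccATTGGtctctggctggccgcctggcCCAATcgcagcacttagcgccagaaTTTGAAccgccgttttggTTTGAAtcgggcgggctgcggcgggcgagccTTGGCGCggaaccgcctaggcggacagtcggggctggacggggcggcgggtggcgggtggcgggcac
Ccnd3: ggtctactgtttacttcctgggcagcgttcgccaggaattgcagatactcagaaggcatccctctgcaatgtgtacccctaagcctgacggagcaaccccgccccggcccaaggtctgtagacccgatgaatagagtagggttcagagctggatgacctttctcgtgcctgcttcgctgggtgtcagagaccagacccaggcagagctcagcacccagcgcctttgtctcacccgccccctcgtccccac
Kif11: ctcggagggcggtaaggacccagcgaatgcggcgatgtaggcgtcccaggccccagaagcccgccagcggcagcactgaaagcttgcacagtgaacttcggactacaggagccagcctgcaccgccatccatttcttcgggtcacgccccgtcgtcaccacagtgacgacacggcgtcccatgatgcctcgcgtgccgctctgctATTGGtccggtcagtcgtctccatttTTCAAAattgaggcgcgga
Ccne1: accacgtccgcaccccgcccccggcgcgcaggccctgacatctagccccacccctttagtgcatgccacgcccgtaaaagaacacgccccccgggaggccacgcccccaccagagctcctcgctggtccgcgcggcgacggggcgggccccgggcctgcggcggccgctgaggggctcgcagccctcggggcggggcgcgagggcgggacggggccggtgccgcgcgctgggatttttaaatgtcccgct
Aurka: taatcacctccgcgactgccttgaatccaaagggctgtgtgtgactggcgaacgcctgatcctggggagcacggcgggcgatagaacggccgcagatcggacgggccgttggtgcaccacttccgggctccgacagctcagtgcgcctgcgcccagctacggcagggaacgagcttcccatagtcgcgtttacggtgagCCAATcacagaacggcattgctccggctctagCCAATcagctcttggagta

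These stretches held 6 CCAAT and 4 CHR words before Top2a, and 3 CCAAT, 2 CHR and 1 E2F-type word before Mki67. Kif11 had 1 CCAAT and 1 CHR word and Aurka had 2 CCAAT words, while Ccnd3 and Ccne1 had none of the 3 kinds. The median correlation of a member with the others, defined below, was 0.43 for the 15 tested members with a CHR word and 0.42 for the 17 without, and 0.43 and 0.41 for the 24 with and the 8 without CCAAT. For the E2F-type words it was 0.42 for 10 members with and 0.44 for 22 without, so the medians with and without a motif differed by at most 0.02.

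Expression of the members spanned from Ccnd1, at a mean of 4.42 log2 RPKM over 20 libraries (21.4 RPKM as a geometric mean), to Mybl2, at -1.82. Log2 RPKM is scaled to the joint length of all annotated exons of a gene, so ranks between genes depend in part on that length. After Ccnd1 came Ccnd2 at 3.88, Cdk4 at 3.68, Mki67 at 3.29 and Ccnd3 at 3.11. The 3 D-type cyclins, which start the passage through G1, and their kinase partner Cdk4 thus held 4 of the 5 highest places. Ccna2, the cyclin of S phase and G2, followed at 2.92, and Top2a, the topoisomerase that untangles replicated chromosomes, at 2.57. The median over the tested members was 1.27 log2 RPKM. The lowest tested members were Cdt1 at -0.17, Birc5 at -0.15 and Mcm7 at -0.05. Reads per library ran from 16 for Cdt1 to 6499 for Mki67. No reads are given for Gmnn, whose values could not be matched to whole reads.

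**Figure D1:**
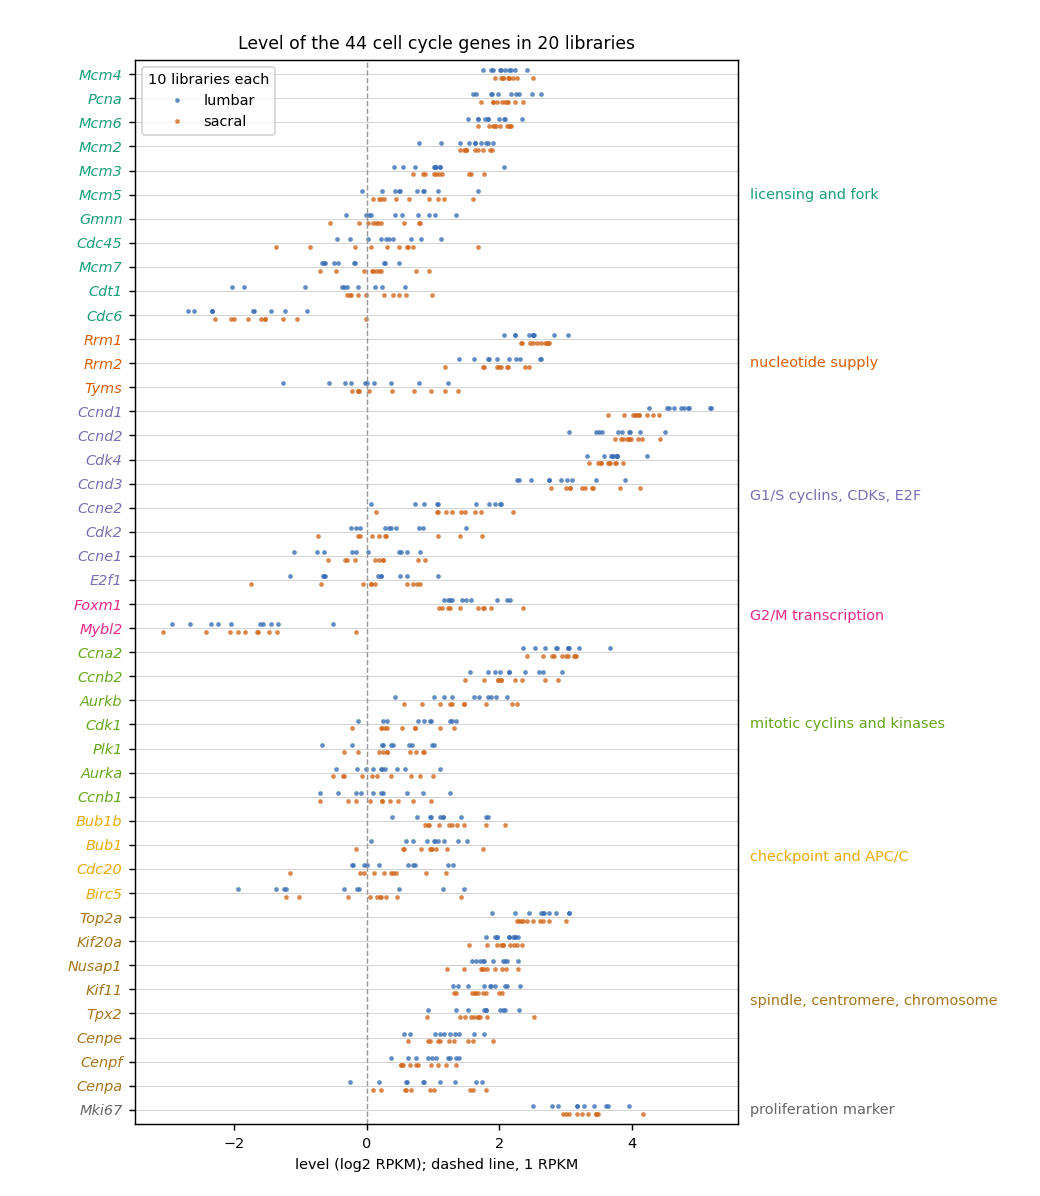
Expression of the 44 members in each library, as log2 RPKM on the horizontal axis, with 1 row per gene, grouped by role, and 10 lumbar (blue) and 10 sacral (orange) points per row. The points of both levels lie over each other in nearly every row, the D-type cyclins and Cdk4 lie farthest right with Mki67, and the blue points of Ccnd1 lie mostly to the right of its orange points.

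Within roles the levels were uneven. Of the origin and fork genes, the helicase subunits Mcm4 and Mcm6 stood at 2.10 and 1.93 log2 RPKM and Pcna, the sliding clamp of DNA polymerase, at 2.06, whereas Mcm7, a subunit of the same helicase ring, stood at -0.05. Mcm7 lies over Cops6 and Ap4m1 on the other strand. The subunits of ribonucleotide reductase, Rrm1 and Rrm2, had 2.53 and 2.02, and Tyms, which makes thymidylate, had 0.20. Among mitotic genes Ccnb2 stood at 2.18 and Ccnb1 at 0.19, although both encode B-type cyclins that partner CDK1. Over all libraries Ccnb2 had 4175 reads and Ccnb1 had 2932, on exon lengths of 1541 and 4217 bases, so much of that gap came from length. The exon length of Tyms was 6089 bases, against 3997 for Rrm1 and 2771 for Rrm2. The spread over the 20 libraries was smallest for Mcm4 (SD 0.18) and Cdk4 (0.19) and largest for Birc5 (0.95), the gene of survivin.

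To ask whether cell cycle expression differed along the spine, each donor's sacral value was set against its lumbar value. Ccnd1 was lower in sacral DRG and was the 1 member of 42 past the threshold (limma, Benjamini-Hochberg adjusted p of at most 0.05 over all genes tested). That is 2.38% of the members, against 6.73% of the 14529 tested genes. In the upward direction 0 members passed, against 2.70% of tested genes, and in the downward direction 1, against 4.03%. At an unadjusted p under 0.05 there were 3 members, Ccnd1, Cdt1 and Ccnd3, or 7.14%, against 24.1% of tested genes. The median difference, sacral minus lumbar, was -0.009 on the log2 scale over the members and -0.048 over all tested genes, with 19 members above 0 and 23 below. Per donor, the median over the members was above 0 in 5 of 10 donors, with an SD of 0.26 between donors.

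Ccnd1 encodes cyclin D1, the D-type cyclin most widely induced by growth factor signals. It is ENSMUSG00000070348 on the minus strand of mm9 chromosome 7 (152115836 to 152125774). Lumbar expression was 5.18 log2 RPKM in M1, 4.52 in M3, 4.84 in M5, 4.63 in M7 and 4.78 in M8, and 4.74 in F3, 4.86 in F7, 5.19 in F8, 4.25 in F9 and 4.55 in F10. Sacral expression in the same order was 4.41, 3.63, 4.06, 4.11 and 4.23 in males and 4.10, 4.32, 4.04, 3.88 and 4.01 in females. Every donor was lower in sacral DRG, by 0.38 in F9 at the least and 1.15 in F8 at the most, and the ranges of the levels overlapped, with sacral M1 and F7 above lumbar F9. The difference was -0.67 ± 0.10 (SE; 95% interval -0.87 to -0.48), a 1.60-fold higher expression in lumbar DRG, with a limma adjusted p of 0.000314. It rested on 1269 to 5798 reads per library. A shared direction in all 10 donors was found for 1 member, Ccnd1, and for 2.85% of tested genes. Of the members, 0 had lumbar and sacral ranges that did not overlap, against 0.138% of tested genes.

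The Ccnd1 gene shares its last 818 bases with the last exon of Oraov1 on the other strand (chromosome 7, 152115836 to 152116653), which is 21.3% of the exon length of Ccnd1 and 18.6% of that of Oraov1. Per the study's methods the libraries were made from double-stranded cDNA, and the strand setting of the count was not given in the sources used here. Reads from that stretch therefore cannot be assigned to either gene. Oraov1, at a mean of 2.64 log2 RPKM, also fell in sacral DRG, by 0.56 (SE 0.09, limma adjusted p = 0.000673). How much either gene adds to the value of the other was not tested.

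The other D-type cyclins had estimates of the opposite sign that did not pass. Ccnd2, cyclin D2, went in lumbar DRG from 3.05 in F9 to 4.49 log2 RPKM in F8 with a median of 3.82, and in sacral DRG from 3.74 to 4.42 with a median of 3.96. It was higher in sacral DRG in 9 of 10 donors, F8 being the exception at 0.53 lower, and the ranges overlapped. The difference was 0.22 ± 0.12 (95% interval -0.02 to 0.46, limma adjusted p = 0.25). For Ccnd3, cyclin D3, lumbar expression ran from 2.27 to 3.90 with a median of 2.84 and sacral expression from 2.78 to 4.12 with a median of 3.26. It was higher in 8 of 10 donors and lower in F8 and M5, with a difference of 0.43 ± 0.16 (0.10 to 0.76, limma adjusted p = 0.108). The lumbar library of F8 had the highest value of the 10 for each of the 3 D-type cyclins and for Cdk4. Without that library 3 members passed the threshold, Ccnd1, Ccnd2 at 0.32 (limma adjusted p = 0.0275) and Ccnd3 at 0.54 (adjusted p = 0.0147), beside 11.9% of tested genes. The last 353 bases of Ccnd3 lie over Bysl on the other strand, which differed by 0.03 ± 0.07.

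**Figure D2:**
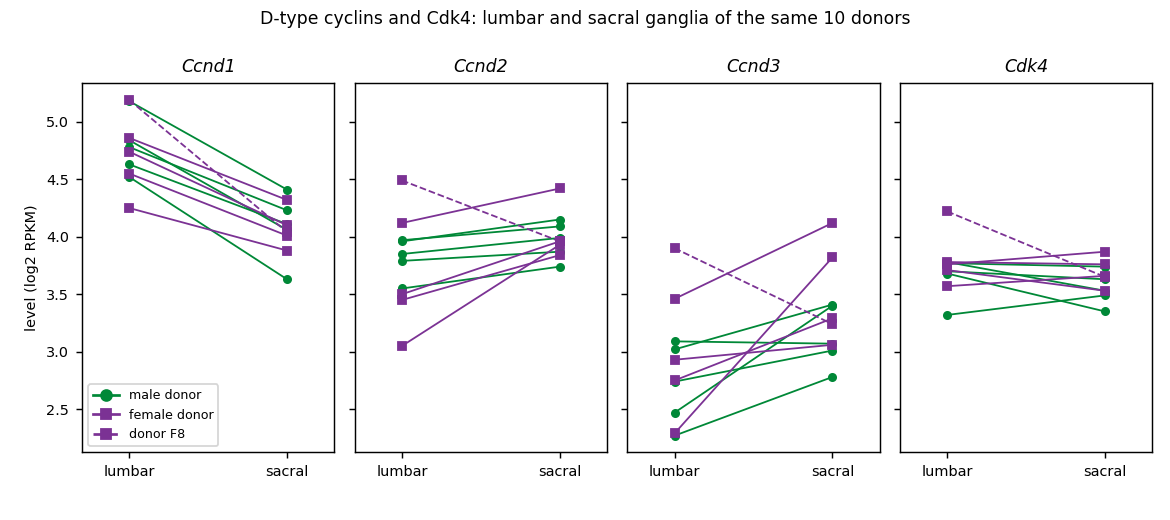
Expression (log2 RPKM) of the 3 D-type cyclins and Cdk4 in lumbar and sacral DRG, with 1 line per donor, male in green circles and female in purple squares, donor F8 dashed. All 10 lines fall for Ccnd1, 9 of 10 rise for Ccnd2 and 8 of 10 for Ccnd3, with F8 falling in each, and the lines of Cdk4 cross.

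Within a library, subtracting the log2 value of 1 gene from that of another removes any scaling of the whole library. Ccnd1 exceeded Ccnd2 by 0.70 to 1.28 in the 10 lumbar libraries (median 0.95) and by -0.10 to 0.33 in the 10 sacral libraries (median 0.07). The ranges did not overlap. Scaled to exon lengths of 3835 and 5701 bases, cyclin D1 message was the more abundant in every lumbar library and close to that of cyclin D2 in sacral ones. Among the other 41 tested members this separation was found for Ccnd2 and Mcm4, or 4.88%, against 4.57% of all 14528 other tested genes, a share near the background. Ccnd1 minus Ccnd3 ran from 1.29 to 2.36 in lumbar and from 0.19 to 1.34 in sacral libraries, and Ccnd1 minus Cdk4 from 0.68 to 1.45 and from 0.00 to 0.76. Each of these differences was smaller in sacral DRG in 10 of 10 donors. They are descriptions, chosen after the values of Ccnd1 were seen.

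Cdk4 itself ran from 3.32 to 4.22 log2 RPKM in lumbar DRG (median 3.73) and from 3.35 to 3.87 in sacral DRG (median 3.64). Its estimate was -0.11 ± 0.08 (95% interval -0.27 to 0.05, limma adjusted p = 0.402), lower in sacral DRG in 7 of 10 donors. Tspan31 lies over the last 604 bases of Cdk4 on the other strand. The remaining G1/S members were Ccne1 and Ccne2, which encode the E-type cyclins, their kinase Cdk2, and E2f1. Their estimates lay between 0.00 and 0.15, with intervals from -0.53 at the lowest to 0.58 at the highest.

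Of the origin and fork genes 10 were tested, with 6 estimates above 0, 4 below and 0 past the threshold. Cdt1, which loads the MCM helicase on origins, had the largest positive estimate of all members. In lumbar DRG it ran from -2.03 log2 RPKM in M3 to 0.57 in F7 with a median of -0.32, and in sacral DRG from -0.30 to 0.98 with a median of 0.12. Sacral expression was higher in 8 of 10 donors, by 1.33 or more in M3, F8, F9 and F10 and by at most 0.13 in the other 4, so the ranges overlapped widely. The difference was 0.69 ± 0.27 (95% interval 0.13 to 1.24, limma adjusted p = 0.123) on 16 to 114 reads per library. Geminin, the inhibitor of Cdt1 encoded by Gmnn, had an estimate of -0.27 ± 0.18 (-0.64 to 0.10, limma adjusted p = 0.364). It ran from -0.31 to 1.34 in lumbar and from -0.55 to 0.80 log2 RPKM in sacral DRG and was lower in 8 of 10 donors.

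Mcm2, a helicase subunit, ran from 0.78 to 1.91 log2 RPKM in lumbar DRG (median 1.63) and from 1.40 to 1.88 in sacral DRG (median 1.56), higher in 5 of 10 donors. Its difference was 0.08 ± 0.11 (95% interval -0.16 to 0.31). Pcna had medians of 2.07 at both levels, with ranges of 1.60 to 2.62 and 1.72 to 2.36, and differed by -0.04 (-0.26 to 0.18). The values of both genes lay over each other between levels. The other tested MCM genes, Mcm3, Mcm4, Mcm5, Mcm6 and Mcm7, had estimates from -0.01 to 0.34, and Cdc45, a part of the active helicase, had -0.11. Of the nucleotide genes, Tyms had 0.40 ± 0.22 (-0.06 to 0.85, limma adjusted p = 0.267), running from -1.26 to 1.22 log2 RPKM in lumbar and from -0.23 to 1.38 in sacral DRG and higher in 8 of 10 donors. Rrm1 and Rrm2 had 0.08 and -0.08.

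The mitotic genes gave intervals on both sides of 0. Cdk1, the kinase that drives entry into mitosis, ran from -0.14 in F9 to 1.35 log2 RPKM in M5 in lumbar DRG (median 0.90) and from -0.23 in M7 to 1.32 in F8 in sacral DRG (median 0.41). It was lower in sacral DRG in 8 of 10 donors and higher in F8 and F9, with a difference of -0.26 ± 0.17 (95% interval -0.62 to 0.10, limma adjusted p = 0.353). Its partner Ccnb1 had medians of 0.16 and 0.23, ranges of -0.70 to 1.25 and -0.70 to 0.96, and an interval of -0.43 to 0.42. The sacral values lay within the lumbar range. The remaining mitotic cyclins and kinases, Ccna2, Ccnb2, the Aurora kinases Aurka and Aurkb, and Plk1, had estimates from -0.08 to 0.00.

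Mki67 and Top2a are commonly used to mark dividing cells. Mki67 ran from 2.50 in F9 to 3.96 log2 RPKM in F8 in lumbar DRG (median 3.22) and from 2.96 in M8 to 4.17 in F7 in sacral DRG (median 3.29). It was higher in sacral DRG in 6 of 10 donors, and its difference was 0.09 ± 0.14 (95% interval -0.21 to 0.39, limma adjusted p = 0.724) on 1771 to 6499 reads. Top2a ran from 1.88 to 3.05 in lumbar DRG (median 2.66) and from 2.27 to 3.0 in sacral DRG (median 2.46), with a difference of -0.10 ± 0.11 (-0.33 to 0.14). It was higher in sacral DRG in 4 of 10 donors. For both genes the sacral values fell within or close to the lumbar range. The other spindle, centromere and chromosome genes were the motors Kif11 and Kif20a, the centromere genes Cenpa, Cenpe and Cenpf, and the spindle factors Nusap1 and Tpx2, with estimates from -0.16 to 0.04. Of the checkpoint genes, Bub1 and Bub1b had -0.08 and 0.16, Cdc20, the activator of the anaphase-promoting complex, had -0.20, and Birc5 had 0.36 with an interval of -0.28 to 0.99. Foxm1, the late-cycle transcription factor, had -0.02 ± 0.13.

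**Figure D3:**
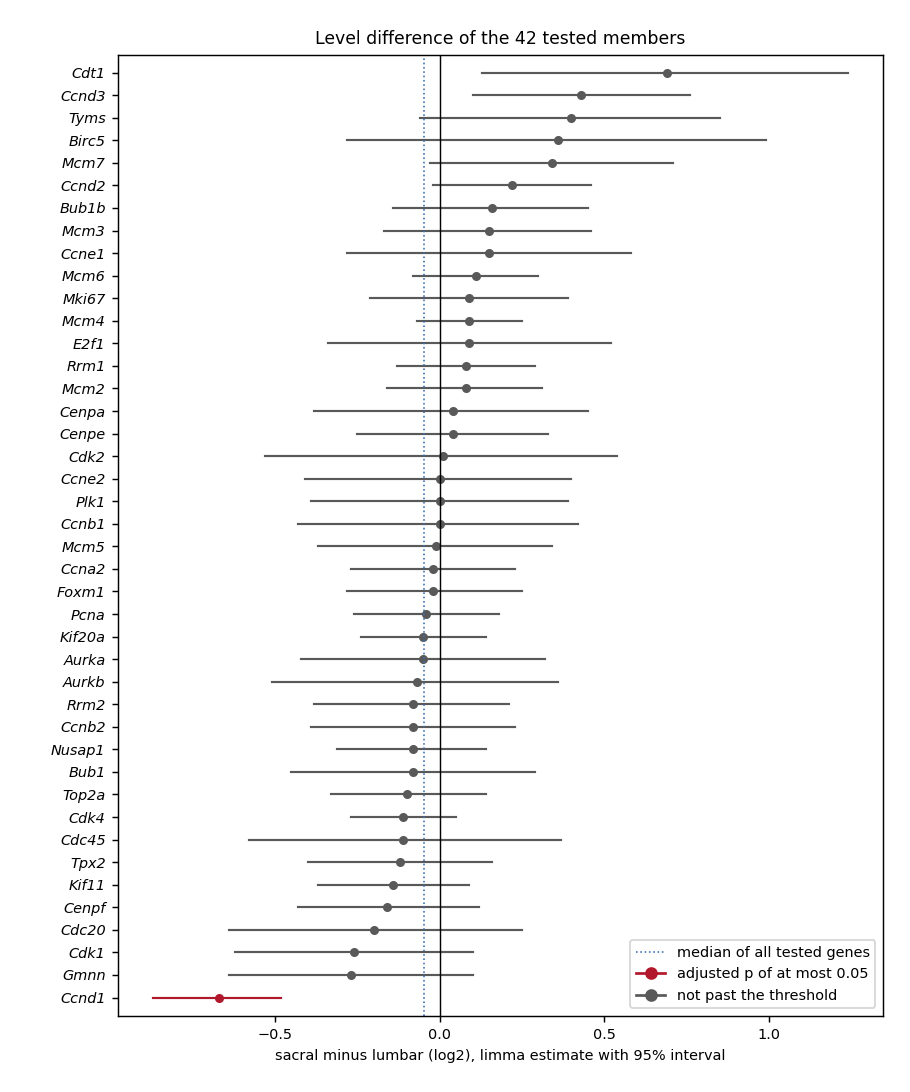
Difference between spinal levels for each of the 42 tested members, as the limma estimate of sacral minus lumbar on the log2 scale with its 95% interval, ordered by size. The interval of Ccnd1 (red) runs from -0.87 to -0.48, and the other 41 members (grey) did not pass the adjusted threshold, with Cdt1 highest at 0.69. The dotted line marks the median of all tested genes at -0.048.

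The 2 members below the expression limit were compared by an exact sign-flip permutation test over the 10 donors, two-sided and unadjusted, which can give no p below 0.00195. Cdc6, the loader of MCM helicases that acts with Cdt1, ran from -2.70 to -0.91 log2 RPKM in lumbar DRG (median -2.02) and from -2.29 to -0.02 in sacral DRG (median -1.57) on 17 to 119 reads per library. It was higher in sacral DRG in 8 of 10 donors, by 0.42 ± 0.71 (SD, n = 10; exact permutation p = 0.0996). In the limma fit without the limit its adjusted p was 0.439. Mybl2, encoding the B-Myb factor, differed by 0.11 ± 0.58 (SD, n = 10; exact permutation p = 0.566) with 6 of 10 donors higher, on 18 to 95 reads, and its adjusted p was 0.881. Leaving out F3 gave Cdc6 an exact permutation p of 0.0273, and the range over the 10 omissions was 0.0273 to 0.195.

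Genes of the same pathways outside the 44 were described with lists chosen by function. Of 44 further replication genes, such as origin recognition, polymerase and clamp loader subunits, 36 were tested and 0 passed (limma), with a median difference of -0.05. Of all tested genes 6.73% passed in either direction. Of 52 further mitosis genes 39 were tested, with a median of -0.039, and 1 passed. This was Racgap1 (chromosome 15, 99450927 to 99482087), a regulator of small GTPases that works in cytokinesis as a part of centralspindlin. Racgap1 ran from 1.05 to 1.61 log2 RPKM in lumbar DRG (median 1.40) and from 0.33 to 0.98 in sacral DRG (median 0.63). These ranges did not overlap, as was found for 0.138% of tested genes. Racgap1 fell by 0.79 (SE 0.09, limma adjusted p = 2.36e-05), a 1.73-fold lower expression in sacral DRG. It was lower in 10 of 10 donors, and 2.85% of tested genes shared a direction in all 10. The correlation of Racgap1 with the mean of the members, described below, was -0.04. Of 18 further E2F, DREAM and CDK genes 17 were tested and 0 passed, against the same 6.73%, with a median of 0.02.

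The brakes of the cycle gave 3 calls among 15 tested of 18 listed genes, against a background of 6.73% in either direction, with a median difference of 0.089. Cdkn1c, which encodes the CDK inhibitor p57, rose by 0.47 ± 0.12 (limma adjusted p = 0.0218), with 9 of 10 donors higher, from a lumbar median of 5.62 to a sacral median of 6.07 log2 RPKM. Gas1, a gene linked to growth arrest that encodes a membrane protein and a receptor of hedgehog ligands, rose by 0.89 ± 0.18 in 9 of 10 donors (limma adjusted p = 0.00588), from a median of 2.11 to one of 2.96. Ccng1, a p53 target encoding cyclin G1, fell by 0.34 (SE 0.07, limma adjusted p = 0.00839) in 9 of 10 donors, from a median of 5.38 to one of 5.01. Cdkn1a, encoding p21, had -0.43 ± 0.14 and was lower in 9 of 10 donors (limma adjusted p = 0.072), and Cdkn1b, encoding p27, had 0.22 ± 0.08 and was higher in 7 of 10 (limma adjusted p = 0.118). The calls moved in both directions. With no donor block the list gave 1 call, and without donors M5 and F7 it gave 1.

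Marker genes of several cell types moved with spinal level. Of all tested genes 2.70% passed as higher and 4.03% as lower in sacral DRG. There, 6 of 10 fibroblast and meninges markers rose, Col1a1, Col1a2, Fn1, Pdgfra, Twist1 and Foxc1, with a median difference of 0.56 over the list. Col2a1 of 4 cartilage markers (list median 0.597), Tek and Cdh5 of 7 endothelium and pericyte markers, and Mrc1 of 7 macrophage markers rose too. The skeletal muscle list had a median of -0.592 and 0 of 5 past the threshold. Of 11 glia markers 5 fell, with Fabp7, S100b, Egr2 and Mbp among them and a list median of -0.34, and of 12 pan-neuronal markers 3 fell, Nefm, Nefl and Snap25, with a list median of -0.38. The summed expression of the glia list ran from 265 to 359 RPKM in lumbar male and from 201 to 246 in sacral male libraries. In females it ran from 286 to 332 in lumbar and from 168 to 301 in sacral libraries. That of the fibroblast and meninges list ran from 244 to 393 and 360 to 457 RPKM in male lumbar and sacral libraries and over 247 to 562 and 334 to 737 in female ones. For the pan-neuronal list the ranges were 1440 to 3020 and 1170 to 2090 RPKM in males and 1480 to 3430 and 625 to 2260 in females. Within a spinal level, Ccnd1 followed the fibroblast and meninges list, which rose where Ccnd1 fell, with r = 0.86 over 10 lumbar and 0.65 over 10 sacral deviations. It had r = 0.92 and 0.40 with the macrophage list, 0.74 and 0.21 with the erythroid list, and 0.61 and 0.07 with the cartilage list. Its r with the glia and pan-neuronal lists, some markers of which fell where Ccnd1 fell, was 0.23 and -0.16 for glia and -0.63 and -0.42 for the pan-neuronal list. The part of these cell types in the difference of Ccnd1 was not tested.

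To see whether the sexes differed, female and male DRG were compared at each level and the level difference was compared between the sexes. No member passed in lumbar DRG (limma, 0 of 42, against 0.330% of tested genes), with 1 member, E2f1, at an unadjusted p under 0.05, beside 8.28% of tested genes. In sacral DRG 0 of 42 passed (limma, against 1.01%), with 2 members, E2f1 and Cdc45, at an unadjusted p under 0.05, beside 15.5% of tested genes. The contrast of the level difference between the sexes passed in 0 members and in 0.00% of tested genes (limma). By this contrast 1 member, Cdc45, had an unadjusted p under 0.05, beside 3.23% of tested genes. The median female minus male difference over the members was 0.022 in lumbar and 0.142 in sacral DRG, beside 0.02 and -0.034 over all tested genes. For Ccnd1 the level difference in females exceeded that in males by 0.05 ± 0.19 (95% interval -0.34 to 0.45).

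E2f1 and Cdc45 were singled out after their values were seen. E2f1, an activator of S phase genes, ran in lumbar DRG from -1.16 to 0.22 log2 RPKM over the males and from 0.17 to 1.07 over the females. Its sacral ranges were -1.74 to 0.06 and 0.12 to 0.80. Female values were mostly the higher ones at both levels, with an overlap in lumbar DRG through M1. The share of tested genes whose sexes lay as far apart was not counted, so these ranges are a description only. The estimates were 1.09 ± 0.36 (95% interval 0.34 to 1.84, limma adjusted p = 0.319) and 1.07 ± 0.36 (0.32 to 1.82, adjusted p = 0.162), on 26 to 275 reads per library. Cdc45 ran from -1.37 to 0.61 in sacral male and from 0.07 to 1.67 in sacral female DRG, which overlap. It had an estimate of 1.0 ± 0.40 (0.18 to 1.83, limma adjusted p = 0.237) there and 0.00 in lumbar DRG.

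The members rose and fell together across the libraries. With each gene taken as its deviation from its 4 group means, the median Pearson correlation over the 861 pairs of tested members was 0.40 over the 20 libraries, against 0.051 over all pairs of tested genes, and 91.3% of the member pairs were above 0. An r over 0.5 was found in 34.6% of the member pairs, against 17.5% of all pairs. It was 0.486 in the 10 lumbar and 0.352 in the 10 sacral libraries, against 0.066 and 0.046. Over the 10 sacral minus lumbar differences it was 0.276, against 0.021. These are descriptions over libraries that share donors, depth and the scaling of each library. After removal of the mitochondrial rRNA share from each gene the median was 0.382, against 0.038, and without the lumbar library of F8 it was 0.337.

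The 4 checkpoint genes had a median r of 0.59 among themselves, the spindle, centromere and chromosome genes 0.51 and the G1/S genes 0.50. The 3 nucleotide genes had 0.32, the mitotic cyclins and kinases 0.30 and the origin and fork genes 0.27. Between roles with at least 3 tested genes the values spanned much the same range. They ran from 0.28, for origin and fork with mitotic cyclins and kinases, to 0.59, for checkpoint with G1/S genes. The members closest to the others were Top2a, Mki67 and Ccnd2, each with a median r of 0.57, and Ccnd3 and Kif11, with 0.56. Ccnd1 had 0.48, so the member that differed between levels followed the others within levels. The closest pairs were Ccne2 with the centromeric histone gene Cenpa (r = 0.916) and the kinetochore motor Cenpe with Mki67 (r = 0.914).

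Kif20a, Aurka and Ccne1 stood apart, with a median r of 0.03, 0.04 and 0.16. Kif20a encodes a kinesin of cytokinesis, and its expression had an SD of 0.20 over the 20 libraries on 220 to 763 reads. It lies over Cdc23 on the other strand. Aurka, a kinase of spindle poles, had 44 to 189 reads per library. The r between Kif20a and Aurka was -0.66, the lowest of all pairs. Among genes outside the list, the 5 closest to the mean of the standardised members over the 20 libraries were Tmpo (r = 0.93), Ptbp1 (0.92), Atad2 (0.91), Lrp4 (0.90) and Adcy7 (0.90).

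**Figure D4:**
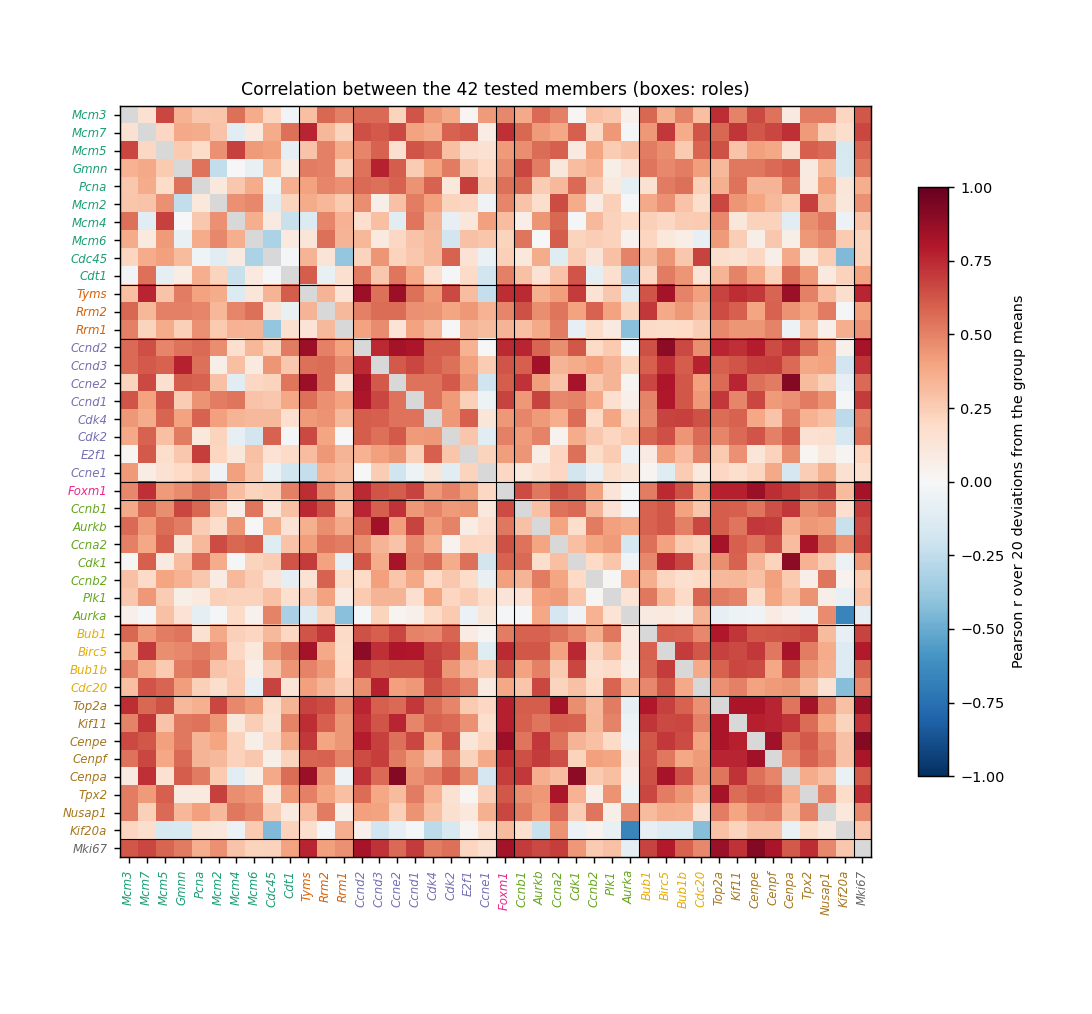
Pearson correlation of each pair of the 42 tested members over the 20 libraries, each gene taken as its deviation from the 4 group means, with red for positive and blue for negative values, genes on both axes and lines between roles. Red covers most of the square, the rows of Mki67, Top2a and Ccnd2 are among the darkest, and the rows of Aurka, Kif20a and Ccne1 are pale or blue.

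The correlation came with differences between single libraries. The mean over the tested members was highest in sacral F7 at 2.02 log2 RPKM, followed by lumbar F8 at 1.95 and lumbar F7 at 1.74, and lowest in lumbar F9 at 0.99. Sacral F7 had the highest value of its group for 31 of the 42 tested members (73.8%), against 22.0% of all tested genes. Lumbar F8 had the highest for 27 (64.3%), against 27.1%, and lumbar F9 the lowest for 22 (52.4%), against 25.6%. Values were present for 23426 genes in sacral F7, 23768 in lumbar F8 and 23259 in lumbar F7, the most of all libraries. In lumbar F9 they were present for 21202 genes, the fewest. The part of the library scaling and of the number of genes with a value in the member mean was not tested. The origin of the F7 and F8 libraries in the same or another litter was not given in the sources used here.

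The same libraries stood apart in markers of other cells. Over the 10 lumbar libraries the deviation of the member mean went with that of the fibroblast and meninges list (Pearson's r = 0.90, Spearman's correlation 0.77), and r was 0.83 without F8 and F10, the libraries farthest from the median of that list. Over the 10 sacral libraries r was 0.84 and Spearman's correlation 0.71, but r was 0.48 without F7 and F9. For the macrophage list r was 0.96 (Spearman 0.88) and 0.79 (Spearman 0.75), and 0.92 and 0.43 without the farthest libraries. Against the pan-neuronal list r was -0.76 (Spearman -0.77) in lumbar and -0.93 (Spearman -0.84) in sacral libraries, and -0.78 and -0.61 without the farthest. The glia list gave 0.00 in lumbar and -0.86 in sacral libraries, and -0.28 and -0.51 without the farthest. Over the 20 libraries the r of its single markers with the mean of the members ran from -0.74 for Gfra3 to 0.56 for Egr2. F7 was among the libraries left out for each of these lists in sacral DRG. For the erythroid, cartilage, skeletal muscle and endothelium lists r was 0.83, 0.82, 0.7 and 0.61 in lumbar libraries. Without the farthest libraries these were 0.76, 0.78, 0.21 and 0.63. In sacral libraries r was 0.21, 0.34, -0.07 and 0.13, and 0.15, 0.46, 0.12 and -0.47 without the farthest. The 2 tested spinal cord progenitor markers gave 0.19 in lumbar and -0.86 in sacral libraries, and 0.46 and -0.86 without the farthest. With the mitochondrial rRNA share r was 0.55 and 0.62, and 0.72 and 0.43 without the farthest. With the log2 of recovered reads it was 0.39 and -0.87, and -0.07 and -0.83 without the farthest, so that in sacral libraries the member mean was higher where depth was lower. The part of depth and of other cells in the member mean was not tested.

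When the mean of the fibroblast and meninges list was removed from each gene, the median r over member pairs was 0.104, against 0.061 over all tested genes. An r over 0.5 was then found in 7.9% of member pairs, against 16.9% of all pairs. With the pan-neuronal mean removed the median was 0.241, against 0.035, with 14.6% of member pairs over 0.5, against 6.09%. Both removals were chosen after seeing the data. Neither list shares a gene with the members. Over the 20 libraries the member mean had r = 0.88 with the fibroblast and meninges list and -0.82 with the pan-neuronal list. Removing a mean so close to that of the members is bound to lower their r, so the drops do not single out a cell type. The macrophage list, at r = 0.84, was not removed. Which cells carried the member messages was not measured in these whole ganglia.

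**Figure D5:**
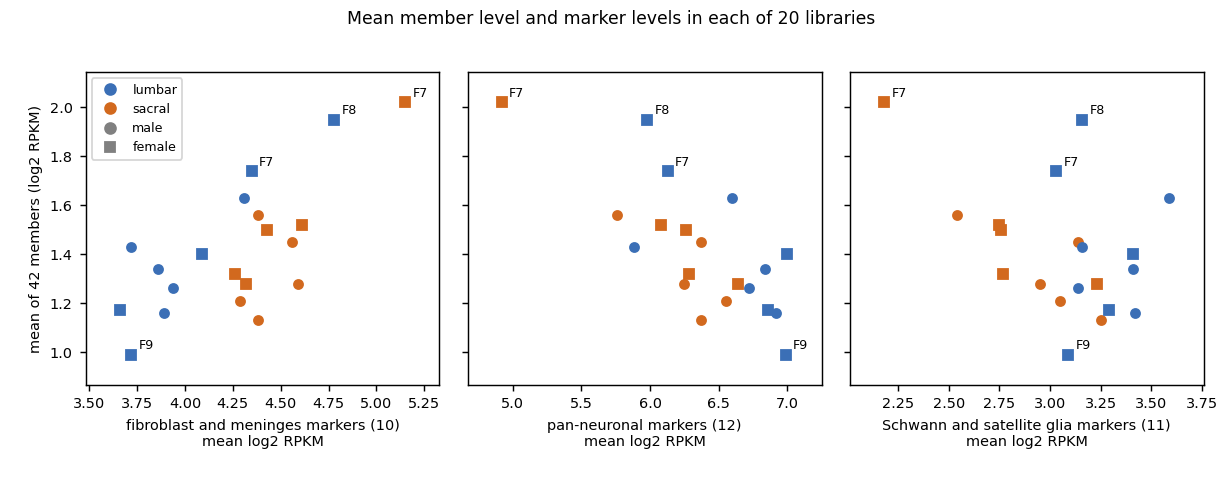
Mean of the 42 tested members (vertical axis, log2 RPKM) against the mean of 3 marker lists (horizontal axes, log2 RPKM) in the 20 libraries, lumbar in blue, sacral in orange, male as circles and female as squares. Sacral F7, with the highest member mean at 2.02, has the highest fibroblast and meninges mean and the lowest pan-neuronal and glia means, and lumbar F9 has the lowest member mean at 0.99.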

How the data were processed

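Total RNA of whole E18.5 DRG was extracted, amplified to double-stranded cDNA (Ovation RNA-Seq v2), made into Nextera XT libraries and sequenced on a HiSeq2500 by the authors. Per the labels and the study's methods, the authors aligned reads to mm9 with Subread, counted them with featureCounts, used edgeR 3.12.1 and limma 3.26.9, and deposited log2 RPKM per Ensembl gene. The strand setting was not given in the sources used here. The members, gene lists and tests were chosen with earlier results of these data known.

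Reads were recovered from the steps of the values with GENCODE M1 exon lengths, and 98.18% to 98.36% of the values of a library came within 0.05 of a whole read. Blanks were set to 0.5 reads. Samples were grouped by sex and spinal level, and columns matched to samples, by label. Each donor was a separate embryo, and its litter was not given in the sources used here.

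The log2 RPKM values of all 20 libraries were fitted with limma 3.58.1 (R 4.3.3), with 4 group means, donor as a block (consensus correlation 0.342), variances moderated with a trend, genes with a group mean of at least 1 RPKM, and Benjamini-Hochberg adjustment over 14529 genes at 0.05. P-values were two-sided. The fit was also run on simulated data with known differences. In these the genes varied independently, without differences shared over a whole library, so the run says nothing of how such differences affect the fit. Pairing comes from the labels, which give both libraries of a donor, whose deviations from the group means correlated from -0.17 (M8) to 0.68 (M5).

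All 44 members are named. Values by donor or range are given for members past the threshold, for Mki67, Top2a, Pcna, Mcm2, Cdk1, Ccnb1, the D-type cyclins and Cdk4, and for the 3 largest differences in each direction. From the pathway lists, genes past the threshold and Cdkn1a, Cdkn1b and Cdkn1c are named. Alternatives were no block, donor as a fixed effect, sample weights, other filters, log2(RPKM + 1), voom on recovered reads, the mitochondrial rRNA share as a covariate, and leaving out donors or libraries.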

Additional observations from a re-analysis of the deposited data

Results flagged for a closer look

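In 14 of 176 combinations of a member and a group of 5 libraries (7.95%), 1 library lay farther from the others than Dixon's criterion allows. For normally distributed values chance alone flags about 1 in 20 such groups. The members share libraries, and the share of groups flagged over all tested genes was not counted, so the flags do not set the members apart.

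Sacral F7 was the high library for 5 members: Mki67 at 4.17 log2 RPKM (others 3.17 to 3.45), Ccnd2 at 4.42 (3.84 to 3.96), Cdk2 at 1.74 (-0.10 to 0.29), Birc5 at 1.42 (0.05 to 0.29) and Mcm7 at 0.93 (-0.04 to 0.22). Sacral F7 also had the highest fibroblast and meninges mean, and the part of other cells in these values was not tested.

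In lumbar male DRG, M1 was high for Foxm1 at 1.96 (1.23 to 1.43) and for Nusap1 at 2.28 (1.64 to 1.76), M3 was low for Cdt1 at -2.03 (-0.38 to 0.23) on 16 reads, and M8 was low for Cdk4 at 3.32 (3.68 to 3.78). In lumbar female DRG, F9 was low for Mcm2 at 0.78 (1.63 to 1.82).

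In sacral male DRG, M1 was high for Mcm5 at 1.08 (0.09 to 0.26), M5 was high for Tyms at 1.18 (-0.23 to -0.12), M7 was low for Pcna at 1.72 (2.09 to 2.23) and M8 was low for Ccna2 at 2.41 (2.95 to 3.15).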

How the results depend on the processing

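Ccnd1 was past the threshold and lower in sacral DRG under all 20 alternatives, with differences from -0.71 to -0.61 and limma adjusted p-values from 5.33e-05 to 0.0114. With no donor block (replicate block removed) it had -0.67 and an adjusted p of 0.00908, 1 member passed, and 154 genes passed in place of 978; with the fixed donor effect 792 passed. The count of members past the threshold was 1, 4 with sample weights (Ccnd1, Ccnd2 at 0.29, Ccnd3 at 0.62 and Cdt1 at 0.95, with 3460 genes passing in all), 3 without the lumbar F8 library, and from 1 to 3 leaving out 1 donor (3 without F8). Over all genes the count was 509 with no filter on low values, 1727 without lumbar F8, 265 without M5 and F7, and from 404 (without F10) to 1608 (without F8) leaving out 1 donor; it was 600 without M1, 490 without M5, 557 without F3 and 519 without F7. Other settings gave 1, the filter at 5 RPKM testing 9 members. The 3 sex comparisons gave 0 members under each alternative run; the fixed donor effect gives no sex difference. The median difference over members ran from -0.074 to 0.06. The further replication genes gave 3 calls with sample weights, 1 with the mitochondrial rRNA share as covariate, 1 without lumbar F8 and 0 to 1 leaving out 1 donor (1 without F8). The further mitosis genes gave 2 with weights, 0 with the filter at 5 RPKM and 1 to 2 leaving out 1 donor (2 without F8 or F9). The brakes gave 1 with no donor block, 5 with weights and 1 without M5 and F7. The E2F, DREAM and CDK genes gave 1 with weights. For members below the limit the count was 0, or 0 to 1 leaving out 1 donor (1, Cdc6, without F3). The coherence, 0.40, became 0.576 with library totals lacking mitochondrial rRNA, 0.496 with the filter at 5 RPKM (9 members; all such genes 0.257), 0.241 after the pan-neuronal mean, 0.104 after the fibroblast and meninges mean, and 0.352 to 0.448 leaving out 1 donor. The cause of these changes was not tested. Settings on lumbar F8, M5 with F7, and marker means were chosen after seeing the data. Cdt1 rested on 16 to 114 reads per library, and the part of depth in its spread was not tested.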
